A study of Mus musculus with 6 samples.

Results

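Heparan sulfate enzymes and the granule proteoglycan serglycin were followed in mouse leukemia cells with and without *Phf6*. The 10 genes were taken by symbol from the deposited expression table, which lists 54532 genes, and each symbol matched 1 row. They comprise the chain polymerase genes *Ext1* and *Ext2*, the N-deacetylase/N-sulfotransferase genes *Ndst1* and *Ndst2*, the epimerase gene *Glce*, the O-sulfotransferase genes *Hs2st1*, *Hs6st1*, *Hs6st2* and *Hs3st1*, and *Srgn*, which encodes serglycin. *Hs6st2* was included because it had counts in *WT Phf6,RE9a* libraries only, so its difference between the groups is described and not tested. The other 9 genes were chosen for their function, within a family picked with results of these libraries in view.

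Leukemias were driven by a retrovirus that carries RUNX1-ETO9a (RE9a, a short form of the RUNX1-ETO fusion protein of human AML) together with GFP. Lin- fetal liver cells of *Phf6* fl/y or *Vav1-Cre*;*Phf6* fl/y genotype received the virus and were passed serially through male recipients, and GFP+ leukemia cells were sorted from the bone marrow of these mice for RNA sequencing. The *WT Phf6,RE9a* group (replicates 1, 2 and 3) carried the floxed *Phf6* allele without Cre, and the *VC Phf6,RE9a* group (replicates 11, 12 and 13) carried the same allele with Cre under the *Vav1* promoter, which is active in blood cells. Both groups expressed RE9a and GFP, and the donor cells were embryonic, while 6 to 8 weeks is the age given for the male mice of the study in general. The passage of the sequenced cells is not given in the sources used here, nor is it given whether the 3 libraries of a group came from separate leukemias, so p-values measure only the spread between these libraries.

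Heparan sulfate is a chain of alternating glucuronic acid and N-acetylglucosamine built on a protein core. EXT1 and EXT2 form the polymerase, NDST enzymes replace N-acetyl groups by N-sulfate, GLCE turns glucuronic into iduronic acid, and HS2ST, HS6ST and HS3ST enzymes add sulfate to the oxygens of the sugars. Highly sulfated chains of this kind on serglycin are known as heparin, which mast cells store in their granules with proteases and histamine. Of the sulfotransferases, NDST2 is known for its part in making mast cell heparin, and HS3ST1 for adding the 3-O-sulfate of the antithrombin-binding site.

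Promoter sequences from RefSeq (GRCm38.p6), from 250 bases before to 50 bases after a transcript start, covered 8 of the 10 genes in 10 windows. The 5 windows below belong to the genes that had no or almost no counts in *VC Phf6,RE9a* cells, *Hs6st2* and *Hs3st1*, and to *Srgn*, the gene with the highest level. All lie on the minus strand and are written 5′ to 3′ with CG dinucleotides in capitals. The *Hs6st2* windows are chrX:51681553-51681852 and chrX:51680428-51680727, the *Hs3st1* window is chr5:39644582-39644881, and the *Srgn* windows are chr10:62527396-62527695 and chr10:62507708-62508007.
Hs6st2 upstream start: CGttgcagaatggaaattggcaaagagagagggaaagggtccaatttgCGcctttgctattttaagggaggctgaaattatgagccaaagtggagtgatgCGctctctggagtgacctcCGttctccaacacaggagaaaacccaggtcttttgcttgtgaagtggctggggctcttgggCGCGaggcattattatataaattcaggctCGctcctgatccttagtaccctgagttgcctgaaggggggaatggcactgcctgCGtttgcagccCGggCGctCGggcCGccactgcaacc
Hs6st2 downstream start: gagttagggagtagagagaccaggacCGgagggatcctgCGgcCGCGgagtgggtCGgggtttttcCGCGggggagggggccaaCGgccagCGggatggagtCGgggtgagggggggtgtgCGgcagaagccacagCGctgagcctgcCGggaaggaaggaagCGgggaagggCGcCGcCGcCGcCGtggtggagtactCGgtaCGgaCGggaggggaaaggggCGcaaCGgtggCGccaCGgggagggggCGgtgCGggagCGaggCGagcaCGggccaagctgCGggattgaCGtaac
Hs3st1: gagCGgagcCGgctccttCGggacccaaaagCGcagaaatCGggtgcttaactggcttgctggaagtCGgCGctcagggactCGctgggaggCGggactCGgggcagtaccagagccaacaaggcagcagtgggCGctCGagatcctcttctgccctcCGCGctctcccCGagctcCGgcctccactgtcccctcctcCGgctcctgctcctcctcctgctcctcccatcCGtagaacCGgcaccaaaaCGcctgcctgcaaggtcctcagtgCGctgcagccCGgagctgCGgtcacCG
Srgn upstream start: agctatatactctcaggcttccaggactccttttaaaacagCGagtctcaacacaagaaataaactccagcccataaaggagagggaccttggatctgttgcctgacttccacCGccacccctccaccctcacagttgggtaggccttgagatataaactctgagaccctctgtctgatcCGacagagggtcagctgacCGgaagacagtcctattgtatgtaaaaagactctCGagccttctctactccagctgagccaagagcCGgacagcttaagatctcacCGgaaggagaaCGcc
Srgn downstream start: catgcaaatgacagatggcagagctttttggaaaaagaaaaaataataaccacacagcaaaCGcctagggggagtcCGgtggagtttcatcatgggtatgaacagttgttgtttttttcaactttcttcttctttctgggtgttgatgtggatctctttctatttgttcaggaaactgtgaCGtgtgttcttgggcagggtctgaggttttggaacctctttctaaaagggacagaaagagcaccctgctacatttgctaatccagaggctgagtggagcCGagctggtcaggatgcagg

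The upstream and downstream windows of *Hs6st2* held 12 and 33 CG dinucleotides, that of *Hs3st1* held 24, and those of *Srgn* held 8 and 4. The windows of *Hs6st1*, *Hs2st1*, *Glce*, *Ndst2* and *Ext2* held 47, 32, 30, 20 and 18. The median over 32851 windows of the same length was 7, with quartiles at 3 and 20. Of the windows of these genes, the downstream window of *Srgn* was the only one under that median, and *Hs6st1* had the most. The RUNX core TGTGGT, the GATA motif AGATAA and the E-box CACATG were searched on both strands, and 16.8%, 11.2% and 14.2% of all windows hold them. Among the 10 windows there was 1 match, a RUNX core in the downstream window of *Srgn* at -202 from the start. A match of letters is a description of the window and not of binding.

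Total counts lay between 15675358 and 16817994 per library, and 14169 genes passed the count filter. Levels are given as CPM (counts scaled to a library of fixed size, after TMM scaling), or as the authors' FPKM where genes of different length are compared. *Phf6* had 1044, 827 and 1142 counts in *WT Phf6,RE9a* and 388, 314 and 331 in *VC Phf6,RE9a* libraries (log2 fold change -1.66, standard error or SE 0.13, adjusted p = 9.32e-05, edgeR's quasi-likelihood test), so each library lay on the side of its label. At an adjusted p under 0.05, 44.2% of the tested genes were called, 21.5% higher and 22.7% lower in *VC Phf6,RE9a* cells, and the median log2 fold change of all tested genes was 0.01. In 28.4% of them every *VC Phf6,RE9a* library lay below every *WT Phf6,RE9a* library. The labelled myeloid cells had reads of *Ptprc*, *Itgam*, *Kit*, *Cd34*, *Fcgr3* and *Spi1* in all 6 libraries.

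Apart from *Hs6st2*, 6 of the 9 genes passed as lower in *VC Phf6,RE9a* cells and 0 as higher, by edgeR's adjusted p, against 22.7% and 21.5% of all tested genes. The counts at an unadjusted p under 0.05, and by DESeq2, were also 6 and 0. The 6 genes were *Ext1*, *Ndst2*, *Hs2st1*, *Hs6st1*, *Hs3st1* and *Srgn*, and the median log2 fold change over the 9 was -1.19. *Ext2*, *Ndst1* and *Glce* did not pass. *Hs3st1* had enough counts for the test in *WT Phf6,RE9a* libraries alone and so had to differ, and without it 5 of 8 genes were lower, with a median of -0.88. In bulk RNA, fewer cells of a type and less RNA per cell cannot be told apart. The comparison was made in the design's only contrast, the one in which the family was noticed, so the count describes the genes and supports nothing further.

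**Figure D1:**
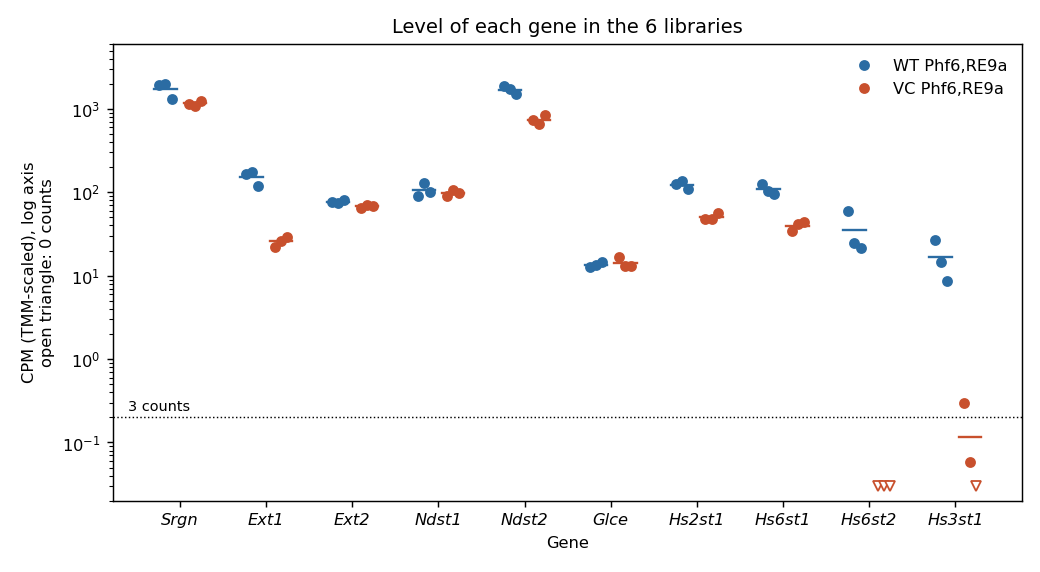
Level of the 10 genes in CPM on a log axis, with 1 point per library, blue for *WT Phf6,RE9a* and orange for *VC Phf6,RE9a*, and a bar at each group mean. Open triangles stand for libraries with 0 counts, the dotted line marks the level of 3 counts, and the *VC Phf6,RE9a* libraries of *Hs6st2* all lie at 0 while those of *Srgn* lie between 1096 and 1245 CPM.

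The chain polymerase genes went apart. *Ext1* (GRCm38 chromosome 15, 53064038 to 53346159, minus strand) had 2569, 2586 and 1954 counts in *WT Phf6,RE9a* and 376, 453 and 487 in *VC Phf6,RE9a* libraries. Its level went from 153 ± 30.8 to 25.8 ± 3.40 CPM (SD, n = 3), which was 16.8% of the *WT Phf6,RE9a* mean. Every *VC Phf6,RE9a* library lay far under every *WT Phf6,RE9a* library (log2 fold change -2.57, SE 0.17, adjusted p = 5.87e-05, edgeR). *Ext2* (chromosome 2, 93661028 to 93822568, minus strand), whose product works with EXT1, had 1170, 1097 and 1320 counts against 1084, 1221 and 1166. In CPM the groups of *Ext2* did not overlap, with 74.4 to 79.9 against 64.0 to 71.1, but the fitted change of -0.17 (SE 0.08, adjusted p = 0.125, edgeR) did not pass. The opposite-strand gene *Alx4*, which overlaps *Ext2*, had at most 2 counts. Of the summed FPKM of both genes, *Ext1* took 66.6%, 68.1% and 57.3% in *WT Phf6,RE9a* and 23.9%, 25.2% and 27.5% in *VC Phf6,RE9a* libraries.

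Of the N-deacetylase/N-sulfotransferase genes, *Ndst2* was by far the more abundant. *Ndst2* (chromosome 14, 20723730 to 20734562, minus strand) had 28732, 25671 and 24896 counts in *WT Phf6,RE9a* and 12522, 11359 and 14021 in *VC Phf6,RE9a* libraries. The level fell from 1705 ± 182 to 745 ± 85.7 CPM (SD, n = 3), log2 fold change -1.19 (SE 0.13, adjusted p = 0.000396, edgeR). *Ndst1* (chromosome 18, 60685978 to 60713389, minus strand) had 1409, 1905 and 1679 counts against 1524, 1807 and 1645, and the groups overlapped. Its log2 fold change was -0.14 (SE 0.14, adjusted p = 0.447, edgeR). *Ndst2* held 94.7% to 96.5% of the summed FPKM of both genes in *WT Phf6,RE9a* and 89.4% to 91.9% in *VC Phf6,RE9a* libraries, and the sum went from 390 ± 41.5 to 178 ± 17.1 FPKM (SD, n = 3).

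*Glce*, the epimerase gene (chromosome 9, 62057248 to 62122655, minus strand), had 194, 200 and 242 counts in *WT Phf6,RE9a* and 282, 223 and 218 in *VC Phf6,RE9a* libraries. The levels of 13.6 ± 1.03 and 14.2 ± 2.12 CPM (SD, n = 3) overlapped (log2 fold change 0.06, SE 0.16, adjusted p = 0.788, edgeR). It was the lowest of the 10 genes per length in *WT Phf6,RE9a* cells, at 1.98 FPKM.

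**Figure D2:**
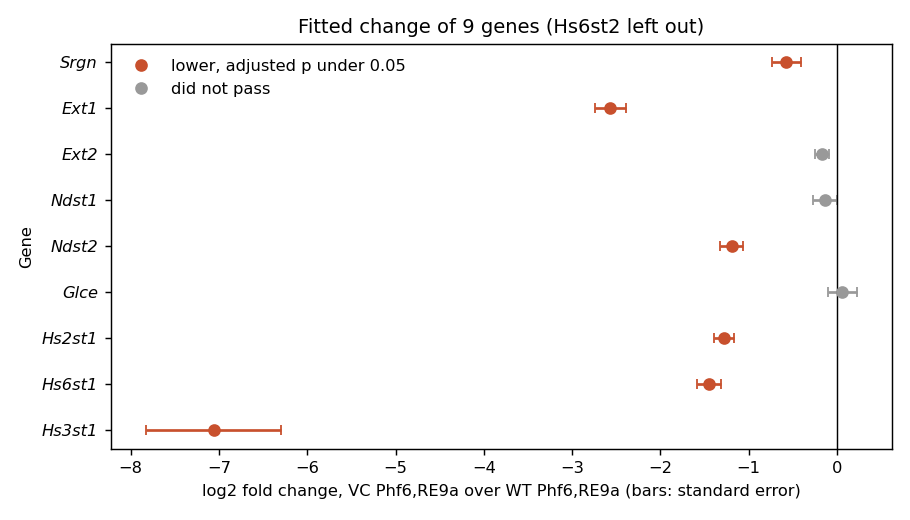
Fitted log2 fold change of 9 genes, *VC Phf6,RE9a* over *WT Phf6,RE9a*, with bars of 1 standard error, orange where the adjusted p was under 0.05 and grey where it was not. *Ext1* and *Hs3st1* lie furthest to the left, at -2.57 and -7.06, while *Ext2*, *Ndst1* and *Glce* lie near 0.

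*Hs2st1*, which encodes the enzyme that sulfates iduronic acid (chromosome 3, 144429706 to 144570181, minus strand), had 1921, 1995 and 1795 counts in *WT Phf6,RE9a* and 805, 824 and 947 in *VC Phf6,RE9a* libraries. Its level fell from 123 ± 13.4 to 50.6 ± 4.91 CPM (SD, n = 3) without overlap, log2 fold change -1.28 (SE 0.11, adjusted p = 0.000157, edgeR). The intronic genes *Gm43707* and *Gm43560* lie in it on the same strand, with at most 27 counts in a library. *Hs6st1*, a 6-O-sulfotransferase gene (chromosome 1, 36068400 to 36106446, plus strand), had 1939, 1540 and 1583 counts against 574, 717 and 734. The *VC Phf6,RE9a* libraries again lay well below, at 39.8 ± 5.16 against 109 ± 15.5 CPM (SD, n = 3), log2 fold change -1.45 (SE 0.14, adjusted p = 0.000209, edgeR).

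*Hs6st2*, the second 6-O-sulfotransferase gene (chromosome X, 51387212 to 51681856, minus strand), had 916, 363 and 358 counts in *WT Phf6,RE9a* libraries and 0 in each *VC Phf6,RE9a* library. The *WT Phf6,RE9a* libraries differed among themselves, replicate 1 standing at 59.5 CPM and replicates 2 and 3 at 24.6 and 21.7 CPM. Against the level of 3 counts per *VC Phf6,RE9a* library, the upper 95% Poisson limit for a count of 0, *Hs6st2* was at least 199-fold lower in *VC Phf6,RE9a* cells, and at least 131.5-fold lower without *WT Phf6,RE9a* replicate 1. These limits cover counting error only. The pseudogene *Gm14581* overlaps it on the same strand and had at most 5 counts. With both genes summed, 6-O-sulfotransferase expression went from 24.0 ± 5.57 to 7.08 ± 0.914 FPKM (SD, n = 3), and *Hs6st2* had made up 25.1%, 14.3% and 13.8% of that sum in the 3 *WT Phf6,RE9a* libraries.

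*Hs3st1* (chromosome 5, 39613935 to 39755475, minus strand) came close to that pattern. It had 418, 213 and 143 counts in *WT Phf6,RE9a* and 5, 1 and 0 in *VC Phf6,RE9a* libraries, so that the *VC Phf6,RE9a* counts lay at or near the limit of detection. It passed the count filter only through the *WT Phf6,RE9a* libraries, so its difference is a description too. The fitted log2 value of -7.06 (SE 0.77) rests on 6 counts in all *VC Phf6,RE9a* libraries together against 774, a ratio of 140.8 with a 95% exact binomial interval from 64.39 to 384.8 that covers counting error only. Across the 10 alternatives that could test it, the value ranged from -8.81 to -2.89, the smallest size coming from limma on log2(FPKM + 1), a scale that understates changes of low genes.

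**Figure D3:**
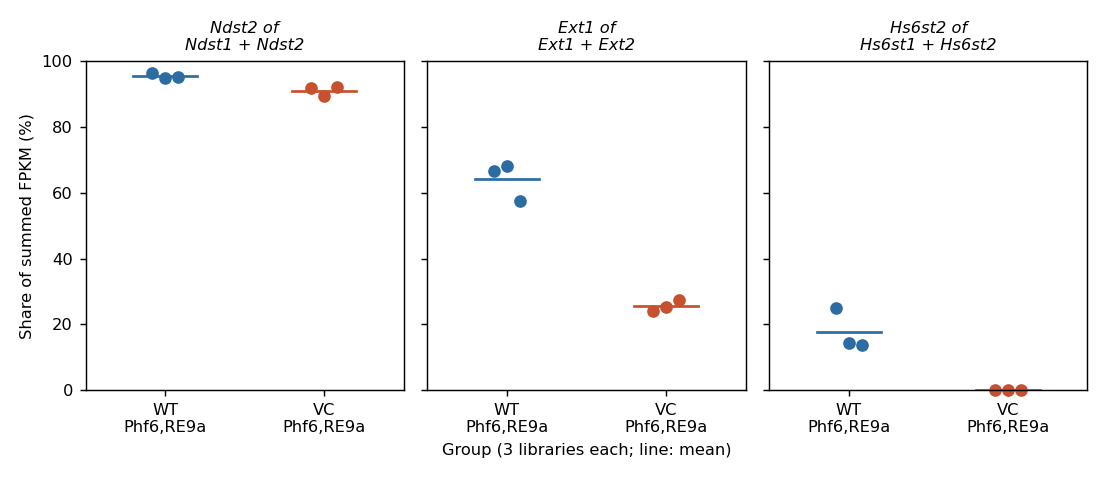
Share of 1 gene in the summed FPKM of a gene pair, in percent, with 1 point per library and a line at the mean of the 3 libraries of a group. The share of *Ext1* lay at 57.3% to 68.1% in *WT Phf6,RE9a* and 23.9% to 27.5% in *VC Phf6,RE9a* libraries, that of *Ndst2* stayed above 89% in all 6, and that of *Hs6st2* was 0 in *VC Phf6,RE9a* libraries.

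*Srgn* (chromosome 10, 62493833 to 62527451, minus strand) had 29408, 29140 and 21857 counts in *WT Phf6,RE9a* and 19583, 18808 and 20954 in *VC Phf6,RE9a* libraries. In CPM these were 1909, 1977 and 1323 against 1156, 1096 and 1245, so the groups did not overlap, but *WT Phf6,RE9a* replicate 3 lay near the *VC Phf6,RE9a* libraries. The mean went from 1736 ± 360 to 1166 ± 75.0 CPM (SD, n = 3), log2 fold change -0.57 (SE 0.16, adjusted p = 0.0243, edgeR). This call was kept in 6 of 11 alternatives. It was lost with limma (adjusted p = 0.0579) and without *WT Phf6,RE9a* replicate 1 (0.0685) or 2 (0.0530) or *VC Phf6,RE9a* replicate 11 (0.0782) or 12 (0.0852), with log2 fold changes between -0.75 and -0.48 over all alternatives.

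Per length, *Srgn* and *Ndst2* stood apart from the rest in both groups. *Srgn* had 786 ± 165 FPKM in *WT Phf6,RE9a* and 524 ± 30.8 FPKM in *VC Phf6,RE9a* cells (SD, n = 3), which placed it at rank 33 and rank 55 among all genes of the table, and *Ndst2* at 373 ± 41.7 and 162 ± 17.7 FPKM held ranks 96 and 237. In *WT Phf6,RE9a* cells *Hs6st1*, *Ext1*, *Ndst1* and *Hs2st1* followed at 19.5, 18.9, 17.6 and 14.9 FPKM, and each of the last 3 means lay within 1 SD of the gene before it. *Ext2* at 10.4, *Hs3st1* at 7.48, *Hs6st2* at 4.50 and *Glce* at 1.98 FPKM closed the order, and the ranges of *Hs3st1* and *Hs6st2* overlapped. In *VC Phf6,RE9a* cells the next places went to *Ndst1* at 15.9 and *Ext2* at 9.18 FPKM, followed by *Hs6st1* at 7.08 and *Hs2st1* at 6.08, whose libraries overlapped, then by *Ext1* at 3.16, *Glce* at 2.05 and *Hs3st1* at 0.0522 FPKM. The order was the same for 10 of 10 genes in both groups when CPM per kb was used.

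The remaining sulfotransferase genes of heparan sulfate had few or no counts. Together with those above, 15 such genes were listed, of which 4 (*Hs3st3a1*, *Hs3st4*, *Hs3st5* and *Hs6st3*) had 0 counts in all 6 libraries. *Hs3st6*, another 3-O-sulfotransferase gene, had 107, 13 and 88 counts in *WT Phf6,RE9a* libraries against 0 in each *VC Phf6,RE9a* library, a level at least 24.8-fold lower. *Ndst4*, named after its values were seen, had 17, 9 and 15 counts in *WT Phf6,RE9a* libraries against 0 in each *VC Phf6,RE9a* library, too few to be tested, and was at least 4.95-fold lower. Other genes of this kind did not share that pattern, and these too were named after their values were seen. *Hs3st3b1* had 12, 12 and 14 counts against 4, 30 and 4 and did not pass (log2 fold change -0.13, adjusted p = 0.906, edgeR). It met the count filter only through the *WT Phf6,RE9a* libraries, and its value hung on *VC Phf6,RE9a* replicate 12. Without that replicate it passed as lower (-1.75, adjusted p = 0.0359, edgeR). Without *VC Phf6,RE9a* replicate 11 or 13 it stood at 0.29 and 0.28 and did not pass. *Ndst3* had 2, 0 and 8 against 4, 2 and 7, too few to be tested. *Hs3st2* had at most 2 counts.

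Further genes of glycosaminoglycan metabolism were taken from 7 lists by function, 68 genes in all, of which 8 had no counts and 48 were tested. In *VC Phf6,RE9a* cells 14 were higher and 17 lower, 64.6% against the 44.2% of all tested genes, and the median log2 fold change was -0.09. Of these, *Xylt1*, *Pxylp1*, *Sulf2*, *Sdc4*, *Chst3* and *Chst13* passed the count filter only through the *VC Phf6,RE9a* libraries. *Hs3st6* passed it only through the *WT Phf6,RE9a* libraries. Their differences are descriptions. With at least 10 counts required in every library, 8 of 38 genes were higher and 14 lower, against 2565 and 2717 of 12087 genes. The lists went in different directions, and their counts stand beside 22.7% lower and 21.5% higher among all tested genes. For the supply of sulfate donor and sugar precursors, 5 of 8 tested genes were lower and 0 higher by edgeR's adjusted p, with a median of -0.38. *Papss2*, which encodes an enzyme that makes the sulfate donor PAPS, had 11763, 8078 and 9488 counts in *WT Phf6,RE9a* and 2696, 2911 and 2990 in *VC Phf6,RE9a* libraries (log2 fold change -1.90, SE 0.14). *Ugdh*, whose product makes UDP-glucuronic acid, fell by 0.59 and *Ugp2*, whose product makes UDP-glucose, fell by 0.50 on the log2 scale.

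For the lysosomal enzymes that break heparan sulfate down, 6 of 7 genes were lower and 0 higher, with a median of -2.08. *Ids*, the iduronate-2-sulfatase gene, had 3891, 3281 and 3173 counts in *WT Phf6,RE9a* and 794, 968 and 807 in *VC Phf6,RE9a* libraries. *Ids*, *Naglu* and *Sgsh*, the latter pair encoding N-acetylglucosaminidase and sulfamidase, had log2 fold changes of -2.14, -2.40 and -2.08. *Gusb*, the β-glucuronidase gene, stood at 0.24 and did not pass (adjusted p = 0.0859, edgeR).

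Heparan sulfate proteoglycan core genes went the other way, with 5 of 7 tested genes higher and 0 lower and a median of 1.77, which was 0.68 with limma on log2(FPKM + 1). Among the higher genes, *Sdc4* had at most 5 counts in a *WT Phf6,RE9a* library and passed the count filter only through the *VC Phf6,RE9a* libraries. *Hspg2*, which encodes the basement membrane proteoglycan perlecan, had 59, 272 and 141 counts in *WT Phf6,RE9a* and 1156, 1547 and 1278 in *VC Phf6,RE9a* libraries (log2 fold change 2.93, SE 0.46). *Sdc3* (syndecan-3) and *Gpc1* (glypican-1) rose by 2.13 and 2.17 on the log2 scale from low levels of 1.54 and 1.33 CPM, and *Agrn* (agrin) by 0.52. *Gpc4* (glypican-4), the core gene with the highest FPKM of the list, had 1300, 1115 and 1555 counts against 1583, 1172 and 917, which overlapped (log2 fold change -0.23, adjusted p = 0.352, edgeR).

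Among the 10 genes for the linker and chain initiation, 5 were higher and 3 lower, with a median of 0.29, which was 0.012 with at least 10 counts required in every library. *B3galt6* and *B4galt7*, which encode the galactosyltransferases of the linker, moved in opposite directions, with log2 fold changes of 0.85 (SE 0.12) and -0.80 (SE 0.13). *B3gat3*, *Fam20b* and *Extl3*, with the highest *WT Phf6,RE9a* FPKM of this list, stood at 0.49, -0.08 and -0.49. *Fam20b* did not pass (adjusted p = 0.489, edgeR). *Xylt1*, a xylosyltransferase gene at 0.996 CPM in *WT Phf6,RE9a* cells, rose by 2.32. Of 12 tested genes for chondroitin and dermatan sulfate synthesis, 3 were higher and 2 lower. Their median of 0.13 turned to -0.048 with no count filter and to -0.098 with at least 10 counts required in every library. *Chst11* and *Chst15*, with the highest FPKM of this list, were called lower and higher, with log2 fold changes of -0.42 and 0.31. *Chst3* and *Chst13*, chondroitin sulfotransferase genes with at most 4 and 11 counts in a *WT Phf6,RE9a* library, had log2 fold changes of 4.88 and 3.40. Both passed the count filter only through the *VC Phf6,RE9a* libraries, so these values are descriptions. *Csgalnact2* and *Chsy1*, which act in chain initiation and elongation, stood at -0.04 and -0.11 and did not pass. Of the secreted sulfatases and heparanases 2 genes were tested, and *Sulf2*, a 6-O-endosulfatase gene, was called higher at 2.04 against 0.620 CPM, a call lost in 6 alternatives. Of the 31 list genes called, 11 lost the call when 1 or another library was left out, namely *Xylt2*, *B3gat3*, *Extl3*, *Papss1*, *Slc35b2*, *Sdc4*, *Chst11*, *Chst14*, *Chst15*, *Idua* and *Sulf2*.

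**Figure D4:**
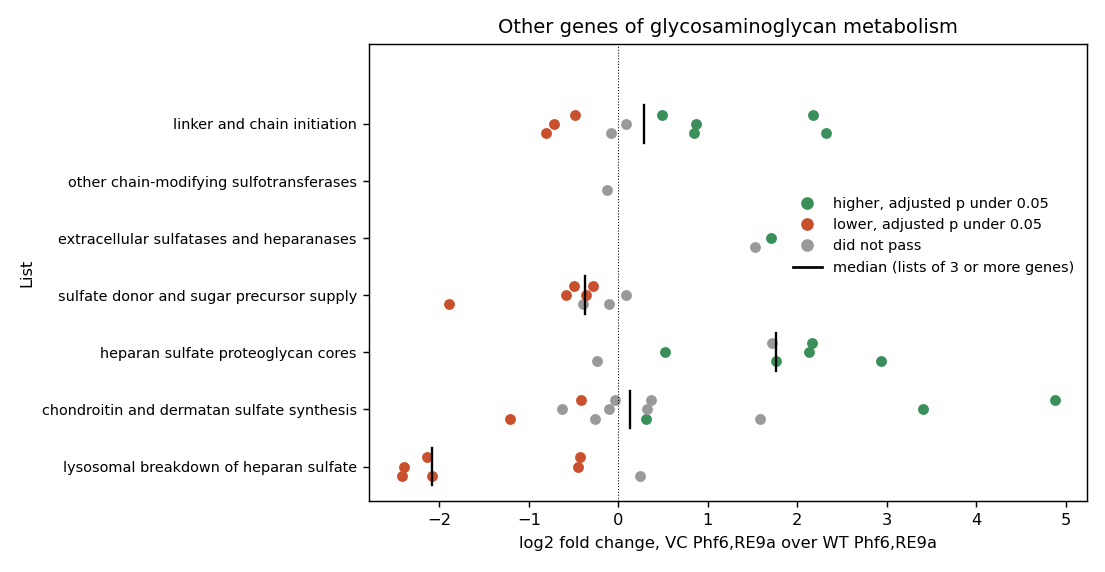
Log2 fold change of the other tested genes of glycosaminoglycan metabolism, *VC Phf6,RE9a* over *WT Phf6,RE9a*, with 1 point per gene, grouped by list, green or orange where a gene was called higher or lower and grey where it did not pass, and a black line at the median of lists with 3 or more genes. *Hs3st6* is left out because its *VC Phf6,RE9a* libraries were at 0. The lysosomal list has its median at -2.08 and the core list at 1.77.

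Proteins that are stored with serglycin in granules were compared as well. Of 7 such genes, 5 were lower and 1 higher, against 22.7% and 21.5% of all tested genes, and the median log2 fold change was -5.64. *Cpa3*, *Cma1*, *Mcpt4* and *Tpsb2* of this list also stand among the mast cell markers below, *Elane* among the azurophil granule markers and *Pf4* among the megakaryocyte markers. *Cpa3*, the mast cell carboxypeptidase gene, had 106070, 120607 and 85568 counts in *WT Phf6,RE9a* and 2671, 6701 and 4608 in *VC Phf6,RE9a* libraries (log2 fold change -4.62, SE 0.37). *Cma1* and *Mcpt4*, chymase genes, had log2 fold changes of -5.64 and -6.04. *Tpsb2*, a tryptase gene with a close paralog that may share its reads, had 52483, 58199 and 38085 counts against 7, 874 and 36, and *Gzmb*, the granzyme B gene, 11050, 2445 and 3080 against 26, 15 and 6. *Elane*, the neutrophil elastase gene, rose by 2.28, from 129, 99 and 348 to 1390, 1019 and 593 counts. *Pf4*, the platelet factor 4 gene, had at most 35 counts and its groups overlapped.

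Marker lists of blood cell types went in different directions. The counts of markers called stand beside 22.7% lower and 21.5% higher among all tested genes. Of 13 mast cell and basophil markers 12 were lower, and their summed level lay between 22820 and 36340 CPM in *WT Phf6,RE9a* and between 7112 and 7821 CPM in *VC Phf6,RE9a* libraries. *Fcer1a* fell from 603 to 5.30 CPM and *Kit* from 2420 to 273 CPM, while *Ms4a2*, at 1180 and 1076 CPM, did not pass (adjusted p = 0.519, edgeR). All 10 neutrophil markers were higher, with sums of 166 to 509 against 1018 to 3842 CPM, all 4 azurophil granule markers, among them *Mpo*, were higher, with 35.0 to 114 against 168 to 359 CPM, and all 7 erythroid markers were higher, with 1421 to 2166 against 4646 to 5320 CPM. The call of *Mpo* was lost without *WT Phf6,RE9a* replicate 1 (adjusted p = 0.0612, edgeR) or *VC Phf6,RE9a* replicate 11 (0.0585). Of 8 monocyte markers 2 were higher and 1 lower, and the sums were 91.9 to 115 against 104 to 177 CPM. The megakaryocyte sum was 167 to 293 against 16.7 to 17.3 CPM, with 1 of 3 tested genes higher and 1 lower and *Gp1bb* at 0. That sum was mostly *Itga2b*, at 237 against 14.3 CPM, while *Gp9* went from 0.110 to 1.20 CPM and *Pf4* stood at 1.38 and 1.33 CPM.

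Markers of lymphoid and stromal cells were low. The B cell sum was 0.545 to 0.714 against 6.12 to 20.02 CPM, with 3 of 3 tested genes higher. The T and NK cell sum was 1.36 to 2.86 against 3.74 to 7.09 CPM, with 1 of 1 tested gene higher and *Cd3e* at up to 6 counts. The sum for stroma and endothelium was 1.75 to 2.84 against 5.94 to 6.26 CPM, with 1 of 2 tested genes higher, *Cdh5* at up to 12 counts and *Col3a1* at 0. Of the 6 markers of the labelled cells 1 was higher and 3 were lower, and their sum was 2260 to 3698 against 420 to 593 CPM. *Kit*, which the mast cell list holds too, was the largest part of that sum in every library. *Cd34* and *Fcgr3* were the other lower genes, while *Itgam* was higher and *Ptprc* and *Spi1* did not pass. Within *WT Phf6,RE9a*, replicate 3 had the lowest mast cell sum and the highest neutrophil sum, and it also had the lowest CPM of *Ext1*, *Ndst2*, *Hs2st1*, *Hs6st1*, *Hs6st2*, *Hs3st1* and *Srgn*. Replicate 2 had the highest mast cell sum and the highest CPM of *Ext1*, *Ndst1*, *Hs2st1* and *Srgn*. *Ndst2*, *Hs6st1*, *Hs6st2* and *Hs3st1* were highest in replicate 1, and *Ext2* and *Glce* in replicate 3. The part of these markers in the differences above was not tested.

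**Figure D5:**
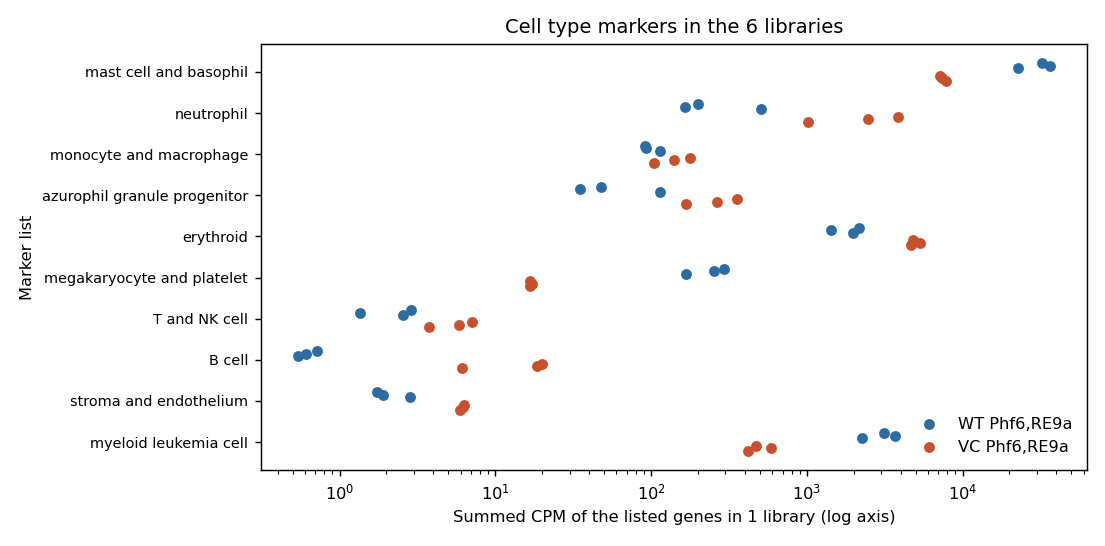
Summed CPM of each marker list on a log axis, with 1 point per library, blue for *WT Phf6,RE9a* and orange for *VC Phf6,RE9a*. The mast cell and basophil sums of the *VC Phf6,RE9a* libraries lie at 7112 to 7821 CPM, below 22820 to 36340 CPM in *WT Phf6,RE9a*, and the erythroid sums lie at 4646 to 5320 CPM, above 1421 to 2166 CPM.

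*Hs6st2* lies on the same chromosome as the deleted gene, 1.23 Mb from *Phf6*, so the genes from 1 Mb before *Hs6st2* to 1 Mb after *Phf6* were listed. Besides *Hs6st2* and *Phf6* the window held 72 genes, of which 12 were tested, with 3 higher and 1 lower in *VC Phf6,RE9a* cells, against 21.5% and 22.7% of all tested genes. The nearest tested genes on each side of *Hs6st2* were *Mbnl3*, 181 kb away, with 727, 767 and 929 counts in *WT Phf6,RE9a* and 822, 889 and 871 in *VC Phf6,RE9a* libraries, and *Gpc4*, 371 kb away. Neither passed, and their groups overlapped. The 3 higher genes, named after their values were seen, were *Gm14586*, *Fam122b* and *Mospd1*, which lie 1090 kb, 1560 kb and 1660 kb from *Hs6st2*, with log2 fold changes of 0.85, 0.53 and 0.89. The lower gene was *Stk26*, at -0.41 (adjusted p = 0.0421, edgeR). The call of *Stk26* was lost with limma (adjusted p = 0.0563) and without *WT Phf6,RE9a* replicate 2 (0.0672) or 3 (0.101) or *VC Phf6,RE9a* replicate 12 (0.133) or 13 (0.130), and that of *Gm14586* without *WT Phf6,RE9a* replicate 3 (0.0594) or *VC Phf6,RE9a* replicate 11 (0.0722), 12 (0.0589) or 13 (0.0843).

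The tested genes whose pattern over the 6 libraries was most like that of *Hs6st2* were *Mrgprx2*, *Sytl3*, *Gzmb*, *Lif* and *Ahnak2*, with a root mean square difference of the gene-centred log2 CPM between 0.453 and 0.601. *Mrgprx2*, a receptor gene of the Mas-related family, had 1264, 771 and 784 counts in *WT Phf6,RE9a* and 0, 1 and 0 in *VC Phf6,RE9a* libraries. *Lif*, a cytokine gene, shared the high value in *WT Phf6,RE9a* replicate 1, with 3220 counts against 940 and 1760. The genes most like *Srgn* were *Grhpr*, *Chchd7*, *Gm2011*, *Secisbp2l* and *Plgrkt*, with differences between 0.0407 and 0.0691, and these shared its lower value in *WT Phf6,RE9a* replicate 3. The 6 libraries were the only points of this measure, and the difference between the groups makes up most of it for *Hs6st2*.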

How the data were processed

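Total RNA of sorted GFP+ cells was made into TruSeq libraries and sequenced as paired ends. The authors deposited 1 table with whole-number read counts per Ensembl gene, not normalized, for 6 libraries. They also deposited FPKM values, scaled by gene length and by library size adjusted with DESeq2 size factors, and the gene length in bases. The table's columns for the authors' own comparison (mean normalized counts, log2 fold changes and p-values) were not used. The submitters' processing notes name Bowtie 0.12.0 and mm8, but 9 of 10 genes had the start and end of GENCODE M21, so the deposited coordinates were read as GRCm38. The counting tool and strandedness are not given in the sources used here, so reads of overlapping genes cannot be told apart.

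The 3 libraries per group were compared in R 4.3.3 with the quasi-likelihood test of edgeR 4.0.16 after TMM scaling, on the 14169 genes kept by filterByExpr. P-values were adjusted over all of these genes by the Benjamini-Hochberg method, with a threshold of 0.05. The test gives no standard error. Each SE was derived as the absolute log2 fold change over the square root of the test's F statistic. A count of 3, the upper 95% Poisson limit for a count of 0, came to 0.175 to 0.204 CPM. A bound is the *WT Phf6,RE9a* mean over that level in *VC Phf6,RE9a* libraries. Figures used matplotlib 3.10.9 in Python 3.11.15. Alternatives were RLE size factors, no filter, at least 10 counts in every library, DESeq2 1.42.0, limma 3.58.1 on log2(FPKM + 1), and each library left out in turn. Running them on *Phf6*, on the genes near *Hs6st2* and on the granule and marker genes was added after seeing the data.

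The genes, lists and tests were chosen with earlier results of these data known. Named genes were all 10 members, *Phf6*, list genes with a mean of at least 1 CPM in either group (first the 3 with the smallest p and the 3 with the highest FPKM in each list), defining markers, and the 5 genes most like *Hs6st2* and *Srgn*. Some list genes of those first places were named without values, and some genes under 1 CPM were named as well. The values of 1 gene of the lysosomal list are not reported here.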

Additional observations from a re-analysis of the deposited data

How the results depend on the processing

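No paired analysis was possible because the groups share no replicate numbers. The calls of *Ext1*, *Ndst2*, *Hs2st1* and *Hs6st1* held in 11 of 11 alternatives, and *Hs3st1* could be tested in 10, since it has too few counts for a minimum of 10 counts in each library. The fitted change of *Hs6st2* has no bound and was left out. Over the 9 genes, 91 of 98 values kept their direction and side of the threshold and 5, all of *Srgn*, lost the threshold. The change of *Phf6* kept both in 11 of 11.

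With that minimum, 8 genes of the 7 lists were higher in place of 14, of 38 tested, and 2 neighbours of *Hs6st2* were lower in place of 1. Leaving out 1 library gave 2179 to 3132 genes higher and 2511 to 3338 lower, 5 to 6 of the 9 genes lower and 0 higher, 11 to 15 list genes higher and 12 to 17 lower, and 2 to 3 neighbours higher and 0 to 1 lower. The log2 fold change of *Phf6* then ranged from -1.76 to -1.59.

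Direction turned only in values that had not passed. With 1 library left out, the log2 fold change ranged from -0.25 to 0.0067 for *Ndst1*, from -0.062 to 0.12 for *Glce*, from -0.10 to 0.37 for *Extl1*, from -1.75 to 0.29 for *Hs3st3b1*, from -0.077 to 0.25 for *Slc26a2*, from -0.11 to 0.013 for *Csgalnact2*, from -0.44 to 0.49 for *Pf4* and from -0.10 to 0.023 for *Mbnl3*. The lone turn of *Ndst1* came without *WT Phf6,RE9a* replicate 2 and that of *Glce* without *VC Phf6,RE9a* replicate 11. With limma on log2(FPKM + 1) *Pf4* stood at 0.014. The causes were not tested. Of 75 list medians 17 moved by more than the SD of the list's median difference over the *VC Phf6,RE9a* libraries. The spread of the *WT Phf6,RE9a* libraries was not part of that measure. The median of chondroitin and dermatan sulfate synthesis turned to -0.048 with no filter and to -0.098 with the minimum of 10 counts.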
